A study of Mus musculus with 4 samples.

Results

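Cytosolic ribosomal protein genes were followed through a methylated DNA immunoprecipitation (MeDIP) study of mouse leukaemic cells. Members were the gene names of the array that begin with Rpl or Rps and a digit, or Rplp and a digit, leaving out the Rps6 kinase genes and the names that end in l1 or l, which mark paralogs and other ribosomal protein-like genes. Of 76 such names, 75 had at least 3 usable probes, out of 17034 genes that passed the same filter. The members comprised 44 genes of the large (60S) subunit, 30 genes of the small (40S) subunit and Rps19bp1, which meets the name rule but encodes a binding partner of Rps19 and is no ribosomal protein. The 76th name, Rpl27, had 1 usable probe, with log2 ratios of -1.35 on the KO decitabine array, -1.11 on the WT decitabine array, -2.05 on the KO untreated array and -3.23 on the WT untreated array. Just inside the limit were Rps2 and Rps28 with 6 probes each. No probe on the array used here was named Rplp0, and Rpsa falls outside the name rule, so neither was analysed here.

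Each group was measured on 1 array: KO cells with decitabine, WT cells with decitabine, KO cells without treatment and WT cells without treatment. Decitabine, a cytidine analog that traps DNA methyltransferases after it enters DNA, was given at 20 nM each 24 h over 3 days, and harvest of treated and untreated cells followed at 72 h. The cells were leukaemic cells grown with interleukin-6, interleukin-3 and stem cell factor. The source names read Mll5WTHM and Mll5KOHM and the series title speaks of MLL5, while the genotype field of the KO samples reads HOXA9 KO and the cell line field of all samples reads MII5. Both KO groups are therefore called KO as in their titles. The labels name no separate cultures or mice, so no comparison here has a replicate check, and differences between arrays cannot be told apart from differences between the labellings, hybridisations or slides, since each array lay on a slide of its own. An assay of DNA offers no marker expression with which to check the cell type.

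Ribosomal proteins assemble with ribosomal RNA into the 40S subunit, which reads the messenger RNA, and the 60S subunit, which joins amino acids. Their genes are transcribed in all dividing cells, and in mammals many of their promoters lie in CpG-rich DNA, which is usually unmethylated. Haploinsufficiency of several members (RPS19, RPS24, RPS7, RPS10, RPS26, RPL5, RPL11 and RPL35A in people) causes Diamond-Blackfan anaemia, and loss of 1 copy of RPS14 contributes to the anaemia of 5q- syndrome in people. MeDIP pulls down fragments that hold methylated cytosines, so a probe reads the methylation of the fragment around it and not only of its own bases.

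Values are log2 ratios of MeDIP signal over input signal, set to 0 at the median of all probes on each array. The level of a gene is the mean over its probes, and ± after a gene is the SD over those probes, which are not replicates. A probe is called bright where its MeDIP signal was well above background. The members had 1257 usable probes, a median of 16 per gene (6 to 29), of which 219 were bright on the KO decitabine array (17.4%), 196 on the WT decitabine array (15.6%), 58 on the KO untreated array (4.61%) and 63 on the WT untreated array (5.01%). Over all genes the shares were 16.01%, 14.1%, 4.04% and 4.05% on the same 4 arrays. The scanner software had replaced the MeDIP signal by a surrogate near background in 34.3%, 36.8%, 54.1% and 56.7% of the members' probes, so most values at single probes on the untreated arrays are bounds more than measurements. Rps12, a 40S protein, had no bright probe on any array.

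Bright signal on all 4 arrays was found at 40 of the 1257 probes (3.18%), in 27 members, against 2.61% of the probes of all genes. At these probes the MeDIP signal was measured above background, and not only bounded, in every group. Of the 40, 20 lay upstream of the annotated start, 10 in introns, 8 in exons and 2 downstream. CpG-poor 500 bp windows held 31 of them, windows of middle density 6 and CpG-dense windows 3. Rpl5, Rpl10a and Rpl14 had 3 each. The following probes are printed because they span the range from an intron with no CpG in the probe to a CpG-dense first intron, with each CpG in capitals, as the plus strand of mm9. All 1257 probes equalled mm9 at their stated places. None of the probes printed had a match elsewhere in that genome at 90% identity over 90% of its length. Matches over a shorter part of a probe were not counted.
Rpl23 intron: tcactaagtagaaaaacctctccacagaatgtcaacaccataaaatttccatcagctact
Rps7 intron: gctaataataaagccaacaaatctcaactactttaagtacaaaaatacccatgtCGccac
Rps19 upstream: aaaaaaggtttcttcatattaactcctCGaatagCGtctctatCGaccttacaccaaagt
Rpl10a upstream: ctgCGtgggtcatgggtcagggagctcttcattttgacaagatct
Rpl28 upstream: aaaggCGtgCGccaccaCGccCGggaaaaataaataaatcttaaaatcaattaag
Rps3a intron: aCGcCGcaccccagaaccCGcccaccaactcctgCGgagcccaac

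The Rpl23 probe, at chr11:97639720-97639779, gave log2 ratios of 2.20 in KO decitabine cells, 2.11 in WT decitabine cells, 1.28 in KO untreated cells and 1.81 in WT untreated cells. It holds 0 CpGs and its 500 bp window 8, and it was the highest of the 40 by the mean of the arrays. Rpl23 encodes a 60S protein that can bind Mdm2, the ubiquitin ligase of p53. The Rps7 probe, at chr12:29318739-29318798, gave 0.91 and 2.68 in the KO and WT decitabine cells and 1.33 and 1.91 in the KO and WT untreated cells, and was among the 2 of the 40 that were lower with decitabine in KO cells, by 0.41 on the log2 scale. The Rps19 probe, at chr7:25667439-25667498 with 3 CpGs, gave 2.06, 2.16, 1.21 and 0.23 in KO decitabine, WT decitabine, KO untreated and WT untreated cells. All 3 of these sites, and the Rpl10a site below, were above the array median on every array.

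The other sites printed were lower in untreated than in decitabine cells of both genotypes, as were the Rpl23 and Rps19 sites above. The Rpl10a probe, at chr17:28461870-28461914, gave 1.79 in KO decitabine cells and 1.03 in WT decitabine cells, against 0.70 in KO untreated cells and 0.02 in WT untreated cells. The Rps3a probe, at chr3:85946355-85946399 in a CpG-dense window with 64 CpGs, gave 0.13 and -0.73 in KO and WT decitabine cells, against -1.62 and -2.48 in KO and WT untreated cells. The Rpl28 probe, at chr7:4744058-4744112 with 4 CpGs, gave 0.12 and 0.15 in KO and WT decitabine cells, against -1.28 and -3.24 in KO and WT untreated cells. Its input signal lay 7.58, 7.79, 7.70 and 7.58 log2 units above the array median in KO decitabine, WT decitabine, KO untreated and WT untreated cells, the MeDIP signal 8.26, 8.42, 6.65 and 4.62. The ratio thus moved with the MeDIP channel. Whether DNA from elsewhere in the genome added to the signal of this probe was not tested.

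Of the 40 probes bright on all arrays, 38 were higher in KO decitabine than in KO untreated cells and 36 were higher in WT decitabine than in WT untreated cells, 35 of them in both. The median differences were 1.02 in KO cells and 0.93 in WT cells on the log2 scale, against 0.92 and 0.77 for the probes of all genes that were bright on every array. Over these 40 probes, the MeDIP channel accounted for median differences of 1.25 in KO and 1.21 in WT cells relative to the array median, and the input channel for -0.14 in KO and 0.04 in WT cells. A further 98 probes of members (7.80%, against 6.84% over all genes) were bright on both decitabine arrays and on neither untreated array, and 1 was bright on both untreated arrays alone. More MeDIP signal with decitabine was thus measured at ribosomal protein genes, as over all genes, relative to the array median. This direction depends on the reference point, as given with the gene levels.

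MeDIP over input was lower around the starts of the genes than further away, in members as over all genes. Between 200 bp before and 200 bp after the annotated start, member probes had medians of -0.69 on the KO decitabine array, -0.92 on the WT decitabine array, -1.12 on the KO untreated array and -1.12 on the WT untreated array. From 2000 to 5000 bp into the genes the medians were -0.19, -0.01, -0.30 and -0.49 on the same arrays. Over all genes the medians within 200 bp of the start were -0.57, -0.97, -1.08 and -1.32 on these arrays. From 2000 to 5000 bp they were -0.40, -0.36, -0.44 and -0.55. For the members the lowest stretch lay just after the start on 3 arrays, with -0.96, -1.27 and -1.28 from 200 to 500 bp on the WT decitabine, KO untreated and WT untreated arrays. On the KO decitabine array the trough was shallower at the start itself and lowest from 500 to 1000 bp, at -0.91, with -0.87 from 500 to 200 bp before the start.

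**Figure D1:**
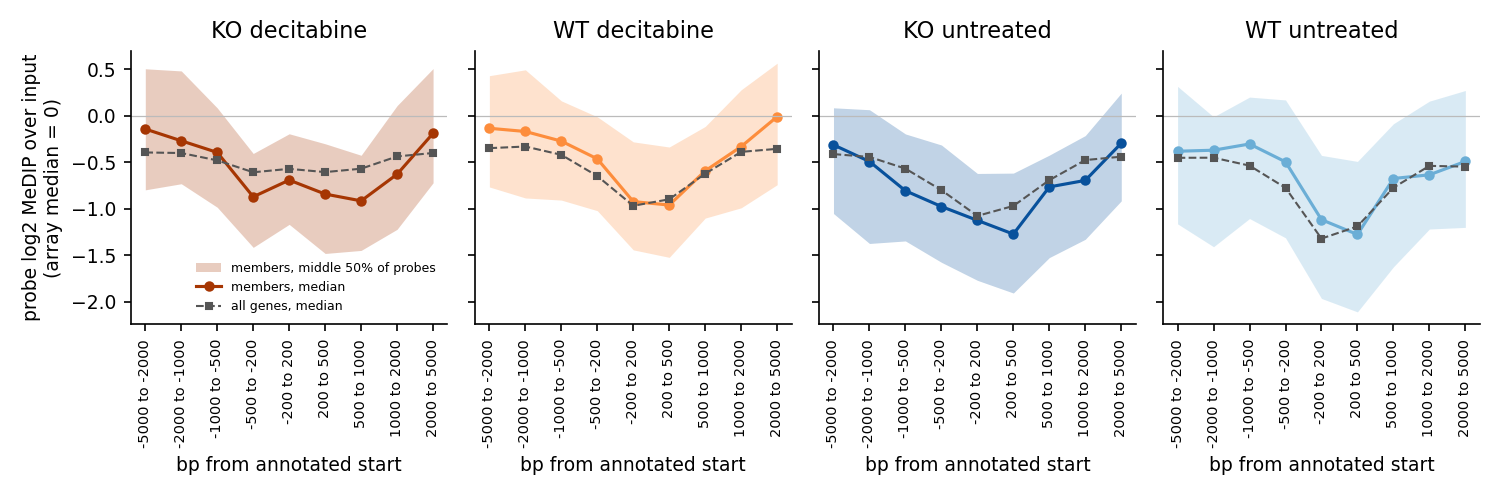
Median log2 MeDIP over input of member probes (coloured, shading for the middle 50% of probes) and of probes of all genes (grey) by distance from the annotated start, 1 panel per array. Medians within 200 bp of the start were -0.69, -0.92, -1.12 and -1.12 in KO decitabine, WT decitabine, KO untreated and WT untreated cells, below those at the far ends of each panel.

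Both channels took part in this trough. In the window from 200 bp before to 500 bp after the start, against probes over 1000 bp away, the MeDIP signal of members was 0.35 against 0.98 on the KO decitabine array and 0.19 against 0.97 on the WT decitabine array, in log2 units above the array median. On the untreated arrays it sat near the array median in both places, at -0.01 against 0.05 in KO and -0.01 against 0.07 in WT cells. The input signal at the start was 0.87, 1.05, 1.20 and 1.11 above the array median in KO decitabine, WT decitabine, KO untreated and WT untreated cells, against 0.72, 0.65, 0.71 and 0.70 away from it. On the untreated arrays the windows thus differed in the input channel and hardly in the MeDIP channel, with surrogate MeDIP values at 63.5% of the start probes in KO and 69.8% in WT cells. The windows also differed in base composition, with a median GC content of 59.0% at the start and 46.3% away from it, and the part of base composition in the trough was not tested. Over all genes the input signal at the start was 0.83, 1.22, 1.03 and 1.20 on the same 4 arrays, against 0.57, 0.60, 0.54 and 0.60 away from it. Their MeDIP signal was 0.55 against 0.64 in KO decitabine and 0.52 against 0.61 in WT decitabine cells. On the untreated arrays it was near the array median in both places.

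Counting bright probes avoids the surrogates. At the starts of the members, 12.3% of 285 probes were bright in KO decitabine cells, 13.0% in WT decitabine cells, 2.81% in KO untreated cells and 3.16% in WT untreated cells. Over 1000 bp away, 22.4%, 19.5%, 6.03% and 6.90% of 696 probes were bright on the same arrays. The members thus had a lower share of bright probes at the start than away from it on all 4 arrays. Over all genes the start had the higher share on 3 arrays, with 18.2% against 15.9% in KO decitabine, 16.9% against 13.8% in WT decitabine and 4.53% against 4.03% in KO untreated cells, and the lower share in WT untreated cells, with 3.88% against 4.25%. Probes of a gene share their source and the difference between members and other genes was not tested. Among CpG-dense probes, wherever they lay, the share of bright probes was lower in members than over all genes, a difference that was not tested. Of the 188 of members, 23 (12.2%), 22 (11.7%), 6 (3.19%) and 6 (3.19%) were bright in KO decitabine, WT decitabine, KO untreated and WT untreated cells. Over all genes 21.99%, 19.3%, 5.55% and 4.24% were bright. The untreated shares of members thus rest on 6 probes each. Members had more CpG-dense probes, 15.0% of all their probes against 8.90% over all genes, and 58.0% against 38.6% within 200 bp of the start.

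**Figure D2:**
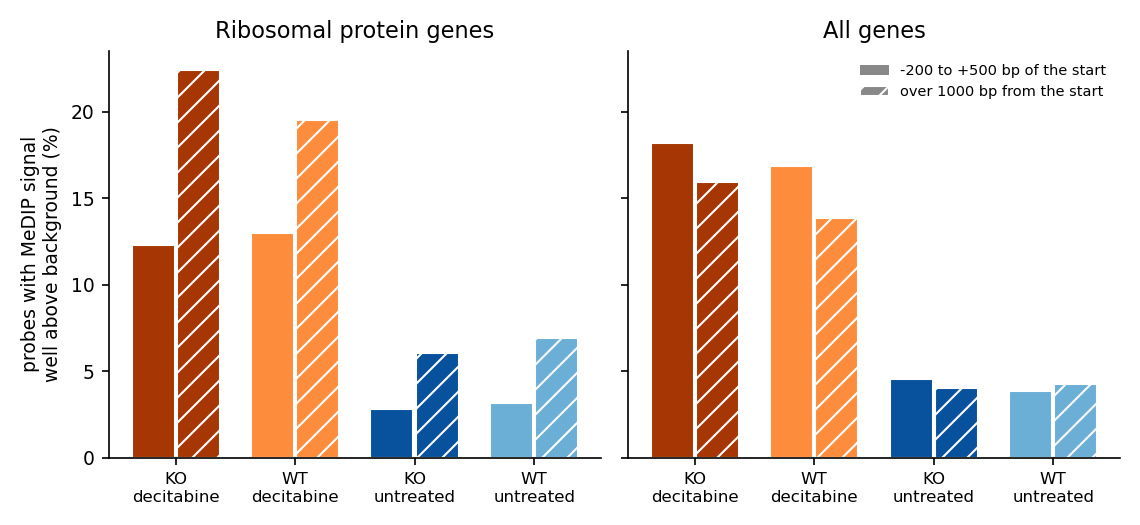
Bright probes, as a percentage of probes, at the start (plain bars) and over 1000 bp away (hatched bars), for the members (left) and all genes (right) on each array. At the members' starts the share was 12.3%, 13.0%, 2.81% and 3.16% in KO decitabine, WT decitabine, KO untreated and WT untreated cells, below the share away from the start on every array.

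Gene by gene, 67 members had at least 2 probes both at the start and over 1000 bp away. The difference of start minus flank had medians of -0.49 in KO decitabine, -0.71 in WT decitabine, -0.64 in KO untreated and -0.74 in WT untreated cells, against -0.23, -0.59, -0.55 and -0.73 over 12208 genes. It was below 0 on all 4 arrays in 42 of the 67 (62.7%), against 51.4% of all genes. By the mean of the arrays the deepest difference belonged to Rpl23, with -1.73, -1.70, -1.91 and -1.60 on the KO decitabine, WT decitabine, KO untreated and WT untreated arrays. Rps19 had -1.13, -1.30, -1.28 and -1.44, and Rps7, a 40S protein that can also bind Mdm2, had -1.20, -1.86, -1.10 and -1.21 on the same arrays. Both also had a bright site, centred at -1921.5 bp from the start in Rps19 and at 2049.5 bp in Rps7. These sites, like the printed Rpl23 probe at 3946.5 bp, are among the flank probes, so they lower the difference themselves.

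Rpl35 alone was above 0 on all 4 arrays, with 1.72, 0.88, 1.35 and 1.70 in KO decitabine, WT decitabine, KO untreated and WT untreated cells; over all genes 6.70% were. Rpl35 encodes a 60S protein at the exit of the peptide tunnel. Its 3 start probes lay in exons, and the one centred 114.5 bp after the start was bright on all arrays, with 1.10, 0.95, 0.23 and 0.66 in KO decitabine, WT decitabine, KO untreated and WT untreated cells. The other two were bright on none. Rpl35 was singled out after its values were seen, and its 7 flank probes are few.

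Next to Rpl35 at the high end lay 2 of the 4 X-linked members. Rpl10, which encodes the 60S protein that allows the subunits to join, had start minus flank differences of 1.497 and 1.70 in KO and WT decitabine cells, against -0.20 and 0.23 in KO and WT untreated cells. Its probe centred 189 bp after the start gave 1.11 and 2.44 in KO and WT decitabine cells and was bright there, against -0.50 and 0.06 in KO and WT untreated cells, where it was not. The exonic probe centred at -24.5 bp gave 0.88 and 2.17 against -0.83 and 0.35 in the same order of arrays, with the same pattern of brightness. Rpl36a had differences of 1.11 and 0.92 in KO and WT decitabine cells, against 0.10 and -0.76 in KO and WT untreated cells, with no bright probe at the start and 2 flank probes. Rps4x and Rpl39, the other two members on the X chromosome, were below 0 on all 4 arrays. The median level of the 4 X-linked members was -0.15 in KO decitabine, -0.03 in WT decitabine, -0.45 in KO untreated and -0.40 in WT untreated cells, against -0.59, -0.47, -0.81 and -0.76 for the 71 autosomal members. All 583 X-linked genes had medians of -0.45, -0.44, -0.56 and -0.58.

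**Figure D3:**
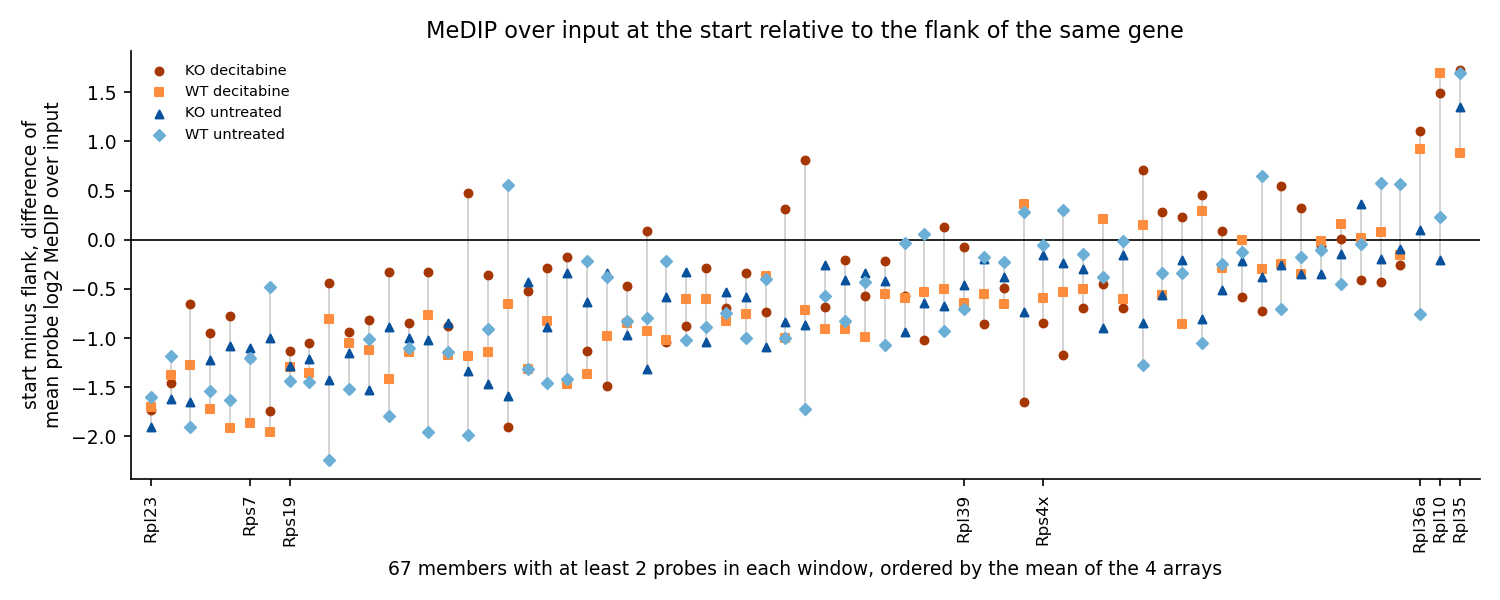
Start minus flank difference of mean log2 MeDIP over input for each of 67 members on the 4 arrays, with members ordered along the horizontal axis by the mean of the arrays and those described in the text named. Rpl23 is lowest by that mean, and Rpl35 at the right end is the member above 0 on every array, with Rpl10 and Rpl36a beside it.

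The 250 bases before the RefSeq start are shown for Rpl23 (lowest start minus flank), Rpl35 (start above flank) and the X-linked Rpl10. The stretches are printed 5′ to 3′ along the gene, from RefSeq on GRCm38.p6, with CpGs in capitals. They lie at chr11:97782440-97782689 on the minus strand (Rpl23), chr2:39005132-39005381 on the minus strand (Rpl35) and chrX:74270566-74270815 on the plus strand (Rpl10).
Rpl23: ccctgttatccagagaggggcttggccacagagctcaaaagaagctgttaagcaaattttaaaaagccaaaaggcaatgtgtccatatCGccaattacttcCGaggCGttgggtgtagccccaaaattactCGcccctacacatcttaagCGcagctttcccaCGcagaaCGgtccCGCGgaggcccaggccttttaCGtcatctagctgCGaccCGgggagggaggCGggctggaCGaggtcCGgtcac
Rpl35: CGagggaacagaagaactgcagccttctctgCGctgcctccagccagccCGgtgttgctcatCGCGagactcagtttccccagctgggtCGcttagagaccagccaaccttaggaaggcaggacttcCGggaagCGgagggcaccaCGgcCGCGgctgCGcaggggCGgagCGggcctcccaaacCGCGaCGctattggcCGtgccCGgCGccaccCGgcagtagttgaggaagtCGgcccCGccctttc
Rpl10: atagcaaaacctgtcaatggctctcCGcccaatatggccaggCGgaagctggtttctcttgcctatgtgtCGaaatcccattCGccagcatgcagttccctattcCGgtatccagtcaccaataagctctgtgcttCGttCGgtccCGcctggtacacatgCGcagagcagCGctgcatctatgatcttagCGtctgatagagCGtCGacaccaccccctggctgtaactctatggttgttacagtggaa
These stretches hold 15 CpGs in Rpl23, 23 in Rpl35 and 13 in Rpl10. The 54 members with a RefSeq promoter had a median of 18 CpGs (5 to 31) in the 250 bases. Over 27025 genes with such a promoter, on the array or not, the median was 6. Where a gene had several promoters, the highest count was taken. Motifs were searched on both strands and counted if any promoter of a gene held them. CCGGAAG was present in 16 of the 54 (29.6%, against 7.83% of these 27025 genes) and GGGCGG in 27 (50%, against 35.4%). CCAAT was present in 15 (27.8%, against 37.5%) and TATAAA in 3 (5.56%, against 14.3%). CCGGAAG holds the core bound by ETS factors. A palindrome centred on CGCG that is known from TATA-less promoters was present in 5 (9.26%, against 0.448%), namely Rpl10a, Rpl12, Rpl26, Rps19 and Rps6. Rpl35 held CCGGAAG and Rpl23 and Rpl10 did not.

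As whole genes the members had a median level of -0.56 in KO decitabine, -0.46 in WT decitabine, -0.80 in KO untreated and -0.75 in WT untreated cells, against -0.46, -0.47, -0.63 and -0.71 over all genes. Of the 75, 29, 40, 22 and 31 were above the all-gene median on these arrays. In KO cells 12 members with decitabine and 17 without were below the 10th percentile of all genes, against 4 in WT cells with decitabine and 4 without. The highest level by the mean of the arrays belonged to Rpl4, which lines the peptide tunnel, with 0.40 ± 1.08, 0.19 ± 0.79, 0.12 ± 0.49 and 0.08 ± 0.69 (11 probes) in KO decitabine, WT decitabine, KO untreated and WT untreated cells. It was the one member above 0 on all arrays. The lowest was Rps18, a protein of the 40S head, with -1.01 ± 0.63, -1.11 ± 0.72, -1.75 ± 0.95 and -1.55 ± 0.73 (9 probes) on the same arrays. Next to these came Rpl10, Rps23, Rps7 and Rps24 at the high end and Rps15, Rplp2, Rpl10a and Rpl12 at the low end, and these neighbours lay closer together than the SD over the probes of 1 gene.

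**Figure D4:**
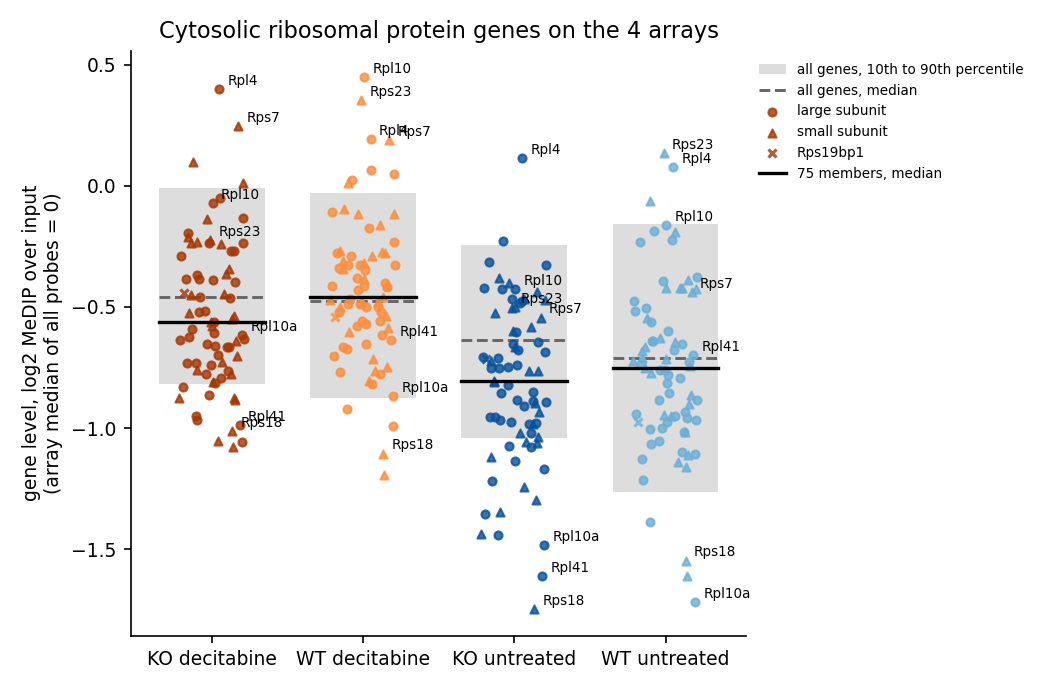
Level of each of the 75 members (log2 MeDIP over input, 1 point per gene) on the 4 arrays, with the median of the members (black line) and the median and the 10th to 90th percentile of all genes (dashed line, grey). The medians of the members are -0.56, -0.46, -0.80 and -0.75 in KO decitabine, WT decitabine, KO untreated and WT untreated cells.

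Decitabine was compared with no treatment within each genotype. The median difference over the members was 0.27 in KO cells and 0.32 in WT cells, against 0.21 and 0.25 over all genes. Above 0 were 65 members in KO (86.7%) and 70 in WT cells (93.3%), against 76.5% and 80.2% of all genes. No member was past 2-fold with 80% of its probes moving that way in KO cells, where 0.757% of all genes were higher and 0.00587% lower, or in WT cells, where 1.07% were higher and 0.0117% lower. A fold between 2 arrays rests on measured signal only where at least 1 probe was bright on both, which held for 37 members in KO and 39 in WT cells. For the other members the levels and limma differences below are averages that include surrogate values, and their sizes are not measured folds. Among the members described below, Rps14, Rps16, Rps25, Rpl3, Rpl10, Rpl22, Rpl35a, Rplp1 and Rplp2 had no bright probe on either untreated array. Rps6, Rps10 and Rpl11 had none in WT untreated cells, and Rps26 and Rpl41 had none in KO untreated cells. Where brightness was confined to 1 array, the bound was below 1-fold in all 86 cases over the 4 comparisons, so no fold is given.

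A limma fit over the 4 arrays with a term for decitabine and one for genotype, with 1 residual degree of freedom, called 31 of the 75 members for decitabine after Benjamini-Hochberg adjustment over all genes, all higher. That is 41.3% of the members against 34.8% of all genes (32.7% higher and 2.1% lower), so the members' share lay near that of the genome. The error in this fit comes from how far the decitabine difference of a gene differs between KO and WT cells, moderated over all genes. Its SEs and p-values therefore measure no spread between cultures or between arrays of 1 group. The calls changed with the processing. Centred on the probes bright on every array, 36 members were called, all lower, among 57.3% of all genes called. With loess 1 was called, lower (4.98% of all genes), and with the median over probes 3 were called, higher (4.98%). Centring shifts all genes on an array alike, so it cannot change where the members lie relative to all genes. With loess the members' median lay below that of all genes in KO cells (-0.21 against -0.15) and above it in WT cells (-0.12 against -0.14). With the median over probes it was 0.22 against 0.08 in KO cells and 0.0968 against 0.101 in WT cells.

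**Figure D5:**
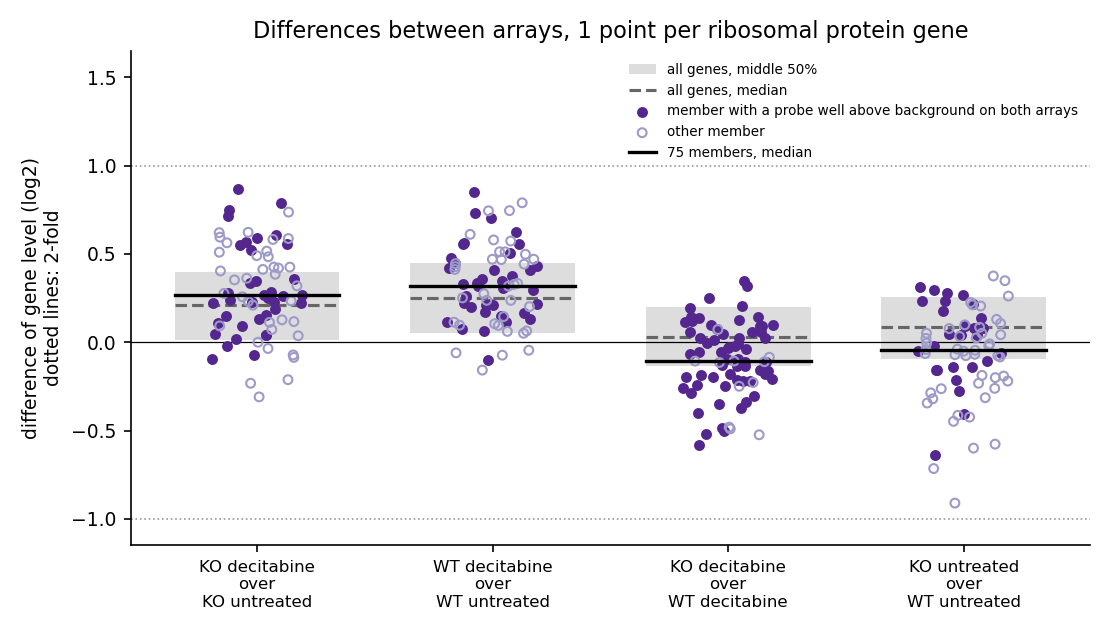
Difference of gene level on the log2 scale in 4 comparisons of 2 arrays, 1 point per member, filled where a probe was well above background on both arrays, with the median of the members (black line) and the median and middle 50% of all genes (dashed line, grey). All members lie within 2-fold (dotted lines).

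Among 40S proteins, 15 of 30 were called for decitabine, all higher, which is 50% against 34.8% of all genes, a difference that was not tested. Rps7 had 0.25 ± 1.01 and 0.19 ± 1.26 in KO and WT decitabine cells, against -0.54 ± 0.97 and -0.44 ± 1.30 in KO and WT untreated cells (18 probes), with both treated values above both untreated ones and a limma difference of 0.71 ± 0.12 (SE; adjusted p = 0.00187). Rps19, which acts in maturation of 18S ribosomal RNA, had -0.24 and -0.31 in KO and WT decitabine cells, against -0.80 and -0.67 in KO and WT untreated cells (26 probes; limma adjusted p = 0.0143). Rps14 had -0.21 and -0.27 in KO and WT decitabine cells, against -0.72 and -0.68 in KO and WT untreated cells (18 probes; limma adjusted p = 0.0133). In both genes the treated arrays lay above the untreated ones. Rps3a, an early-binding 40S protein, and Rps10 were also called (limma adjusted p = 0.00994 and 0.0415).

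Other 40S members of known disease or signalling roles were not called. Rps24 had -0.23 ± 1.16 and 0.01 ± 1.38 in KO and WT decitabine cells, against -0.38 ± 1.28 and -0.06 ± 1.24 in KO and WT untreated cells (limma adjusted p = 0.484). Rps26, which sits at the exit of the mRNA channel, had -0.73 and -0.72 in KO and WT decitabine cells, against -1.24 and -0.64 in KO and WT untreated cells (limma adjusted p = 0.241). Here the treated values lay between the untreated ones. Rps6, the target of the S6 kinases, had -0.56 and -0.48 in KO and WT decitabine cells, against -0.60 and -0.95 in KO and WT untreated cells, with 1 bright probe, in KO untreated cells (limma adjusted p = 0.154). Rps3, at the entry of the mRNA channel and also a DNA repair protein, had -0.24 and -0.29 against -0.47 and -0.19 in the same order (limma adjusted p = 0.722). Rps3 was higher with decitabine in KO cells and lower in WT cells. Rps27a, the fusion of ubiquitin to a 40S protein, went the other way, with -0.54 and -0.28 in KO and WT decitabine cells, against -0.44 and -0.39 in KO and WT untreated cells (limma adjusted p = 0.967).

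Among 60S proteins, 15 of 44 were called for decitabine, all higher, which at 34.1% is close to the 34.8% of all genes. Rpl10a had -0.62 ± 0.85 and -0.87 ± 0.85 in KO and WT decitabine cells, against -1.48 ± 0.92 and -1.72 ± 1.35 in KO and WT untreated cells (21 probes), with both treated values above both untreated ones and the largest limma difference among the members (0.86 ± 0.12, SE; limma adjusted p = 0.000709). The difference of Rpl10a was 0.67 with the deposited log ratio, 0.52 with quantile normalization, 0.12 centred on bright probes and 0.08 with loess, and the call was lost in each (limma adjusted p = 0.154, 0.0543, 0.602 and 0.749). The calls of Rps7 and Rpl11 were lost in each of these settings too. That of Rpl11 was also lost with the median over probes and with probes upstream or within 1000 bp of the start. Rpl11, which with Rpl5 and 5S ribosomal RNA restrains Mdm2, had -0.20 and -0.34 in KO and WT decitabine cells, against -0.75 and -1.13 in KO and WT untreated cells (16 probes; limma adjusted p = 0.0026). Its partner Rpl5 had -0.29 and -0.11 in KO and WT decitabine cells, against -0.42 and -0.52 in KO and WT untreated cells, and was not called (limma adjusted p = 0.11). Rpl10 had -0.07 and 0.45 in KO and WT decitabine cells, against -0.43 and -0.16 in KO and WT untreated cells (17 probes; limma adjusted p = 0.0127). Rpl22, a 60S protein recurrently lost in human T cell leukaemia, had -0.27 and -0.62 in KO and WT decitabine cells, against -0.85 and -0.93 in KO and WT untreated cells (24 probes; limma adjusted p = 0.0173).

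Rpl14, Rpl32 and Rpl37 were also called, with limma differences of 0.64 ± 0.12, 0.64 ± 0.12 and 0.65 ± 0.12 (SE; adjusted p = 0.00309, 0.00304 and 0.00281). Rpl3, beside the peptidyl transferase centre, had -0.97 and -0.49 in KO and WT decitabine cells, against -0.97 and -1.07 in KO and WT untreated cells, and Rpl35a had -0.37 and -0.33 against -0.75 and -0.56 in the same order. Neither was called (limma adjusted p = 0.131 and 0.065). The acidic P stalk recruits the elongation factors. Its Rplp2 had -0.95 and -0.92 in KO and WT decitabine cells, against -1.44 and -1.39 in KO and WT untreated cells (15 probes; limma adjusted p = 0.0107), and was called. Rplp1 had -0.70 and -0.17 against -0.49 and -0.22 in the same order, with the KO cells lower with decitabine, and was not called (limma adjusted p = 0.634). Rplp1 had 1 bright probe, in WT decitabine cells.

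KO cells were compared with WT cells at each treatment. The median difference over the members was -0.11 with decitabine and -0.04 without it, against 0.03 and 0.08 over all genes. Of the 75, 25 (33.3%) and 32 (42.7%) were above 0, against 54.9% and 62.6% of all genes. No member was past 2-fold with decitabine, where 0.276% of all genes were higher and 0.0352% lower, or without it, where 0.17% were higher and 0.0704% lower. With limma 3 members were called for genotype (4%, against 4.51% of all genes, 2.85% higher and 1.67% lower), all lower in KO cells. With normexp background correction also 3 were called, but all were higher, among 12.4% of all genes called. The medians also turned with that setting, to 0.0466 with decitabine and 0.18 without it, against 0.12 and 0.27 over all genes, and with the deposited log ratio the median without treatment was 0.19, against 0.28 over all genes. In each case the members lay below all genes.

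Rps23, which lies in the decoding centre and bears on translational accuracy, had -0.23 ± 0.71 in KO and 0.35 ± 0.96 in WT decitabine cells, and -0.50 ± 0.59 in KO and 0.13 ± 0.84 in WT untreated cells (14 probes). Both KO arrays lay below both WT arrays (limma -0.61 ± 0.12, SE; adjusted p = 0.0193), and 1 probe was bright on all 4. Rpl41, the smallest ribosomal protein, had -0.99 ± 0.76 in KO and -0.64 ± 0.70 in WT decitabine cells, and -1.61 ± 0.95 in KO and -0.70 ± 0.63 in WT untreated cells (12 probes; limma -0.63 ± 0.14, SE; adjusted p = 0.0306). Rps25, which is needed by several viral internal ribosome entry sites, had -0.87 ± 0.94 in KO and -0.47 ± 0.92 in WT decitabine cells, and -1.44 ± 1.01 in KO and -0.72 ± 1.23 in WT untreated cells (9 probes; limma -0.56 ± 0.13, SE; adjusted p = 0.0313). Rpl41 and Rps25 had no bright probe on the KO untreated array. All 3 calls were lost with normexp, the deposited log ratio, quantile normalization and the median over probes, where the limma adjusted p-values lay between 0.0731 and 0.806. The differences of Rps23, Rpl41 and Rps25 were -0.12, -0.19 and -0.18 with normexp, but -0.61, -0.73 and -0.68 with quantile normalization and -0.57, -0.53 and -0.50 with the median over probes. The call of Rps25 was also lost with loess and with centring on bright probes (limma adjusted p = 0.0982 and 0.0602).

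Members that were higher in KO cells with a bright probe on both arrays included Rps15 (0.31 ± 0.66, 10 probes), Rpl28 (0.29 ± 0.74, 13 probes) and Rpl32 (0.28 ± 0.84, 16 probes) without treatment, and Rpl22 (0.35 ± 0.85), Rps15a (0.32 ± 1.02, 15 probes) and Rpl10a (0.25 ± 0.79) with decitabine. Lower were Rps23 (-0.64 ± 0.92) and Rps3 (-0.28 ± 0.75) without treatment, and Rps23 (-0.58 ± 0.84), Rpl10 (-0.52 ± 0.88) and Rps16 (-0.50 ± 0.85) with decitabine. Each of these differences was smaller than the SD over the probes of its gene.

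Genes of neighbouring steps were read with the same fit. For decitabine, limma called 18 of 52 genes of ribosome biogenesis, 3 of 9 of the RNA polymerase I machinery, 12 of 36 translation factors and 24 of 73 mitochondrial ribosomal proteins, all higher, against 34.8% of all genes. Of 6 ribosomal protein paralogs (such as Rpl22l1 and Rpl39l) 0 were called, and 0 had an unadjusted p under 0.05, against 8051 of all 17034 genes. For genotype, limma called 0 genes of ribosome biogenesis, the RNA polymerase I machinery, mitochondrial ribosomal proteins and the paralogs, with 8, 2, 17 and 1 genes at an unadjusted p under 0.05, against 4096 of all 17034 genes. Of the 36 translation factors, 2 were called higher in KO cells (Eif4e and Eif4h) and 1 lower (Eif2s1), or 8.33% against 4.51% of all genes. Lists of other lineages gave 7 of 11 germline, 2 of 6 myeloid, 3 of 4 B lineage and 1 of 4 T lineage genes called for decitabine, all higher, and 0 for genotype, where 2, 0, 2 and 0 had an unadjusted p under 0.05.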

How the data were processed

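MeDIP DNA (Cy3) and input DNA (Cy5) of 4 groups were hybridised to 4 Agilent 2-colour arrays, with no dye swap, per the labels. Per the submitters' processing notes, the scanner files that the authors deposited come from Feature Extraction 10.5 (Agilent). The deposited intensities are linear and, per the file headers, background-subtracted, detrended and dye-normalized, with surrogates for signals near background. The deposited log ratio is on a log10 scale, Cy5 over Cy3, per the file headers, and its sign was turned for the alternative that uses it. The deposited flags for signal well above background, surrogates, saturation and outliers were used as the authors' files give them.

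From these, log2 of MeDIP over input was taken per probe and centred on the array median of all 520554 probes. A probe was used (328399 were) if on all arrays its input flag read well above background and no channel was flagged as a non-uniform outlier, and genes with at least 3 were tested. No member probe was saturated. limma 3.58.1 in R 4.3.3 was used for the additive fit over 4 arrays, with Benjamini-Hochberg adjustment at 0.05, and was tested on simulated data. Windows of 500 bp were called CpG-dense where CpGs observed over those expected reached 0.75 with GC content of 55% or more, and CpG-poor under 0.48. Distances are to the nearest GENCODE start of a protein-coding transcript of the gene on mm9, the build of the file headers. The number of arrays limits the precision.

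The members and lists were chosen with earlier results of these data known. Genes named were the 5 highest and 5 lowest in level, the 5 with the most probes bright on all arrays, the 3 highest and 3 lowest differences per comparison among members bright on both arrays, the 3 smallest limma p-values per term, members past 2-fold, and members with a known role in disease, signalling or the stalk. A result of 1 member that this rule names is not reported here. Members named beside a printed sequence or a start difference were chosen after their values were seen. The alternatives tried were normexp with an offset of 50, the deposited log ratio, loess, quantile normalization, centring on bright probes, no probe filter, the median over probes, and probes upstream or within 1000 bp of the start. Those added after seeing the data were centring on kept probes, leaving out Rps19bp1, leaving out the 4 probes that match elsewhere, and start minus flank and single genes under the other settings.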

Additional observations from a re-analysis of the deposited data

Results flagged for a closer look

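In 4 of the named members with a bright probe on every array, decitabine went with opposite signs in KO and WT cells, and the difference was not tested, since each group has 1 array. Rpl28 was -0.02 in KO and 0.33 in WT cells, a KO minus WT difference of -0.35 on the log2 scale. Rpl35 was -0.07 in KO and 0.21 in WT cells, a difference of -0.287. Rps27a was -0.10 in KO and 0.11 in WT cells, a difference of -0.209. Rps3 was 0.23 in KO and -0.10 in WT cells, a difference of 0.325. Each change was smaller than the SD over the probes of its gene. The share of all genes with opposite signs was not counted. The signs hold with centring on all probes. Probes bright on every array had medians of 0.37 and -0.50 in KO decitabine and KO untreated cells. In WT decitabine and WT untreated cells they had 0.08 and -0.53. Centred on those probes, all these changes would be negative.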

How the results depend on the processing

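With 1 array per group there is no replicate to leave out. No paired analysis was possible because each group has 1 array and no replicate number. The values below are median differences of the members on the log2 scale, unless counts are named. With normexp background correction KO over WT turned to 0.0466 with decitabine and 0.18 without it. With that setting limma called 19 members for decitabine (22.1% of all genes called) and 3 for genotype (12.4%), all higher. Start minus flank was -0.26, -0.47, -0.50 and -0.53 in KO decitabine, WT decitabine, KO untreated and WT untreated cells. With the deposited log ratio, decitabine over no treatment in KO cells was -0.065 and KO over WT without treatment was 0.19. There limma called 0 members for decitabine and 0 for genotype (0.839% and 0.44% of all genes called). With loess, decitabine over no treatment was -0.21 in KO and -0.12 in WT cells, KO over WT was -0.26 with decitabine and -0.17 without it, limma called 1 member for decitabine, lower, and start minus flank in KO untreated cells was -0.50. With quantile normalization, decitabine over no treatment was 0.0397 in KO and 0.0259 in WT cells. In KO over WT without treatment 1 member was past 2-fold, lower, and the share of all genes past 2-fold was not counted with this setting. Here limma called 0 for decitabine and 0 for genotype (4.04% and 0.117% of all genes called). Start minus flank in WT untreated cells was -0.60. Centred on bright probes, decitabine over no treatment was -0.61 in KO cells (all genes -0.66) and -0.28 in WT cells (all genes -0.35). KO over WT with decitabine was -0.40. In KO cells 3 members were past 2-fold, lower, with decitabine, and the share of all genes past 2-fold was not counted with this setting. Here limma called 36 for decitabine, all lower (57.3% of all genes called). The limma differences of Rps7 and Rpl11 were -0.0304 and -0.0655. Without the probe filter, decitabine over no treatment was 0.16 in KO and 0.16 in WT cells and limma called 11 members for genotype, all lower, among 17.96% of all genes called. With the median over probes the difference in WT cells was 0.10, and limma called 3 members for decitabine and 0 for genotype (4.98% and 0.188% of all genes called). With probes upstream or within 1000 bp of the start, limma called 14 of 72 for decitabine (23.3% of all genes called) and 0 for genotype (0% of all genes called). Centred on kept probes, a setting added after seeing the data, decitabine over no treatment was 0.15 in KO and 0.17 in WT cells. With it limma called 10 for decitabine (17.0% of all genes called). Both centrings move all genes on an array alike. The cause of the shifts with the other settings was not tested. The median start minus flank was below 0 on all 4 arrays with normexp, the deposited log ratio, loess and quantile normalization. Depth on the untreated arrays, where most MeDIP signals are near background, limits the sizes.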
